A study of Mus musculus with 2 samples.

Results

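The BCL2 family genes measured here were 4 anti-apoptotic members, Bcl2, Bcl2l1 (Bcl-xL), Bcl2l2 (Bcl-w) and Mcl1, and 6 pro-apoptotic members, Bad, Bak1, Bid, Bik, Bcl2l11 (Bim) and Bmf. They were found by name, as every non-control probe of the arrays whose gene name, or whose current symbol by transcript accession, was that of a member. They made up 10 of the 27790 genes and were read by 22 of the 41164 probes. Dormant DMC-derived B16F1-GFP-D cells were compared with the maternal B16F1-GFP-M cells on 2-colour Agilent arrays, in which RNA of both lines, labelled with different dyes, binds to the same spots. Both are mouse B16F1 melanoma lines that carry GFP, grown in the same serum-containing medium and left untreated. B16F1-GFP-D was grown from GFP+ cells sorted from pooled organs of immunised and control mice that had stayed free of tumours, and was then cloned, so that it stands for a single outgrowth in culture and not for dormant cells in the organs. There were 2 arrays on 1 slide, with Cy5 marking the maternal line on array 1 and the dormant-derived line on array 2, and Cy3 the other line. The labels name no separate cultures, so both arrays together are 1 replicate of each line, the lines were not tested against each other, and the spread between the arrays holds no known variation between cultures.

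Proteins of the BCL2 family decide whether the outer membrane of mitochondria is opened, the step that releases cytochrome c and starts caspases. The effectors BAK and BAX form the openings. The guardians BCL2, BCL-xL, BCL-w and MCL1 hold the effectors back, and the BH3-only proteins, here Bad, Bid, Bik, Bim and Bmf, bind the guardians through a short helix called BH3 or act on the effectors directly. The balance of guardians and BH3-only proteins is known to set how readily a cell dies when its surroundings change. In pigment cells, Bcl2 is a known target of the melanocyte factor MITF, and mice that lack Bcl2 lose their coat colour. Bim is known to be induced by FOXO factors in cells deprived of growth factors. Much of the control of this family lies in phosphorylation, cleavage and turnover of the proteins, which an RNA array does not measure.

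Of the 22 probes, 4 are printed 5′ to 3′ because their letters lie in coding sequence of a functional stretch of the protein, so that they read the message for that stretch. The other probes are named by transcript and position. Capitals mark 8 codons at the same place of the BH1 domain, which helps form the groove that binds BH3 helices, in the guardian Bcl2 and the effector Bak1, and the 2 codons for the glycine and aspartate at the core of the BH3 helix in Bcl2l11. The Bcl2l1 probe has no capitals, since its whole length lies in the stretch that the short, death-promoting splice form Bcl-xS is known to lack.
Bcl2 (BH1 codons in capitals): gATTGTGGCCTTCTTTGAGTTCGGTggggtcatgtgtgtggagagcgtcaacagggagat
Bak1 (BH1 codons in capitals): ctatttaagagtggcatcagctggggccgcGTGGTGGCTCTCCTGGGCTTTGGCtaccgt
Bcl2l1 (long form): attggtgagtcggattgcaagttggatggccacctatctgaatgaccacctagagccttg
Bcl2l11 (BH3 core codons in capitals): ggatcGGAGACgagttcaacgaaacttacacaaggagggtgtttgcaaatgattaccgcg
Positions, here and below, are given on mm9, the build of the array files. The Bcl2 probe lies at chr1:108608970-108609029 and the Bak1 probe at chr17:27158232-27158291, both on the minus strand. The Bcl2l1 probe lies at chr2:152655185-152655244, on the minus strand. The Bcl2l11 probe lies at chr2:127972893-127983988 on the plus strand, and its 60 bases span 11096 bases of the genome, across a splice junction.

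No member differed 2-fold between the lines on both arrays, except Bmf when the scanner software's own ratios were used. Ratios below are log2 of the B16F1-GFP-D level over that of B16F1-GFP-M. A probe counted as detected when at least 1 of the lines was well above background on both arrays, the same line in either dye. A gene counted as called when its brightest probe was detected and its ratio was 1 or more, or -1 or less, on each array. By this rule 8 members were detected, Bad and Bik were not, and 0 of the 8 were called, beside 5.02% of the 12540 detected genes, 3.09% higher and 1.94% lower in B16F1-GFP-D. With 8 detected members, a count of 0 does not set them apart from that share. At 1.5-fold on each array the count of members was also 0, beside 15.8% of the detected genes. The ratio had the same sign on both arrays in 6 of the 8 detected members, beside 83.8% of the detected genes. Over all 22 probes and both arrays, the log2 ratio lay between -0.74, for Bmf, and 0.50, for Bak1. The median size of the mean log2 ratio was 0.27 over the detected members and 0.28 over all detected genes.

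**Figure D1:**
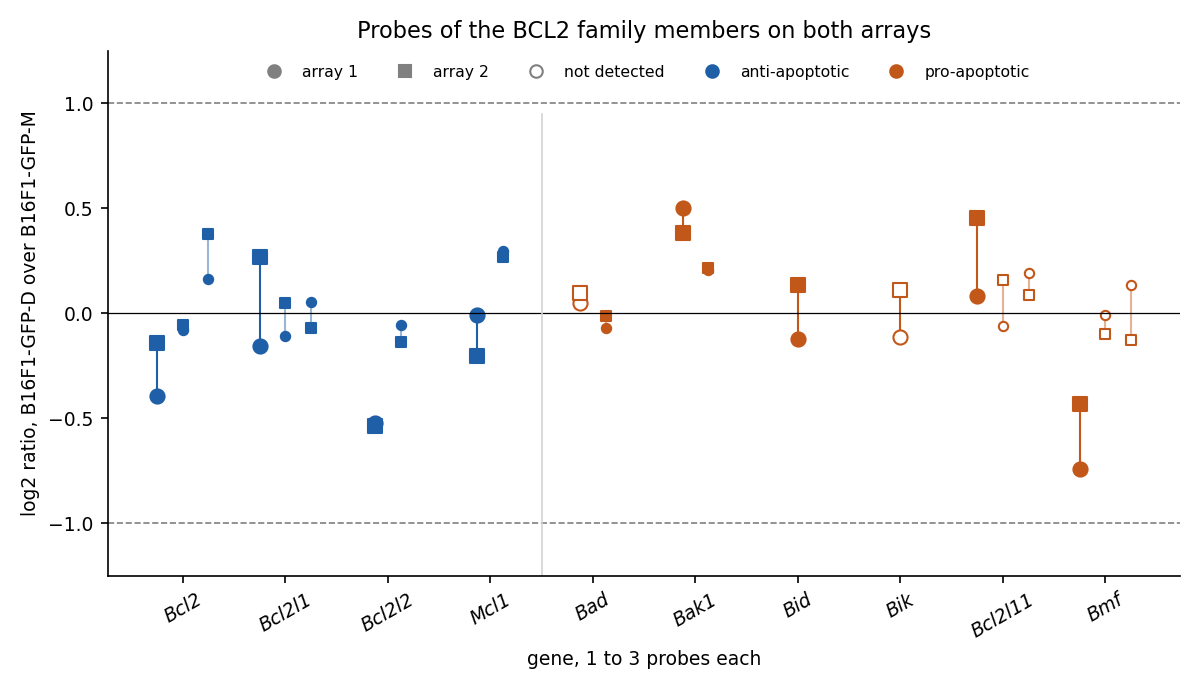
Log2 ratio (B16F1-GFP-D over maternal line) for each of the 22 member probes, on array 1 (circles) and array 2 (squares), joined by a line. The large symbols are each gene's brightest probe, open symbols are probes that were not detected, and the dashed lines mark 2-fold, which no probe reaches on either array.

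Among the guardians, Bcl2l2, which encodes Bcl-w, had the lowest ratio. Its brightest probe (NM_007537, chr14:55506584-55506643) had a signal of 845 in the maternal line and 177 in B16F1-GFP-D on array 1, and of 267 in the maternal line and 624 in B16F1-GFP-D on array 2. Cy5 was the brighter dye on both arrays, so these signals, which are not scaled between arrays, are set side by side within a dye, and in each dye the B16F1-GFP-D signal was the lower. After normalization the log2 ratio was -0.53 on array 1 and -0.54 on array 2, a mean of -0.53 ± 0.01 (SD of the 2 arrays), or 1.45-fold lower in B16F1-GFP-D. Of all detected genes, 10.8% had a lower mean ratio. The other Bcl2l2 probe, for the transcript ENSMUST00000133397 at chr14:55503755-55503814, had ratios of -0.05 and -0.14 and was dim, well above background in B16F1-GFP-D on array 2 only.

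Bcl2, the founding guardian of the family, was read by 3 probes that gave different values. The brightest (NM_009741, chr1:108434793-108434852) had a signal of 1427 in the maternal line and 327 in B16F1-GFP-D on array 1, and of 379 and 1226 on array 2. Its log2 ratio was -0.39 on array 1 and -0.14 on array 2, a mean of -0.27 ± 0.18, with the sign of lower RNA in B16F1-GFP-D on both, and the B16F1-GFP-D signal was the lower in each dye. The coding probe printed above, 174177 bases upstream of it on the minus strand, had ratios of -0.08 and -0.06. The remaining probe, for the clone AK077913, 1660 bases downstream of the coding probe, had ratios of 0.16 and 0.38 at signals of 52.9 to 199. The probes of Bcl2 thus differed in size and, for the dim probe, in sign.

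Bcl2l1, which encodes Bcl-xL, had opposite signs on the arrays. Its brightest probe (NM_009743, chr2:152606631-152606690) had signals of 893 in the maternal line and 243 in B16F1-GFP-D on array 1, and of 223 and 933 on array 2. The log2 ratio was -0.16 on array 1 and 0.27 on array 2, a mean of 0.05 ± 0.30, while the unscaled B16F1-GFP-D signal was the higher in each dye. The gap between the arrays of 0.42 was larger than that of 95.4% of the detected genes. The probe in the stretch particular to the long form had ratios of 0.06 and -0.07, and the other probe, at chr2:152655730-152655789, of -0.11 and 0.05. No Bcl2l1 probe had the same sign on both arrays.

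The brightest probes of Bcl2 and Bcl2l1 are each printed on an array several times, which shows how much of the gap lies within an array. For Bcl2l1, the 10 spots of array 1 ran from -0.21 to -0.07 with a median of -0.16, and the 10 spots of array 2 from 0.21 to 0.37 with a median of 0.25. The spots had an SD of 0.04 on array 1 and 0.05 on array 2, and those of the 2 arrays did not overlap. For Bcl2, the 9 spots kept on array 1 ran from -0.43 to -0.35 with a median of -0.39, and the 10 spots of array 2 from -0.20 to -0.10 with a median of -0.15. Here too the arrays did not overlap, with an SD of 0.03 on each. Spots of 1 array share 1 labelled RNA per line and are no replicates. For these probes the arrays, which differ in dye orientation, differed by more than the spots within them, and which part the dye had in that was not tested.

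**Figure D2:**
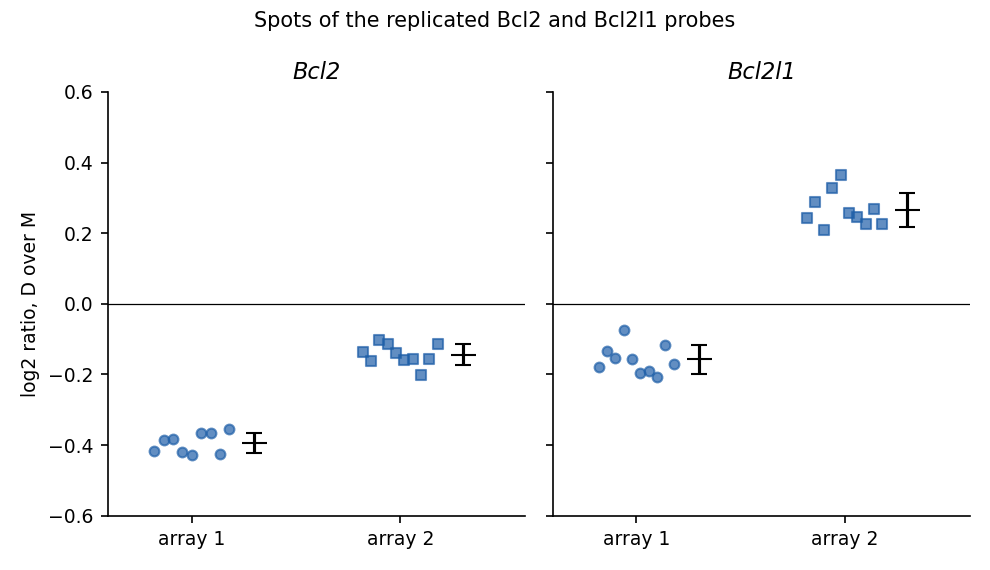
Log2 ratio (B16F1-GFP-D over maternal line) for each spot of the brightest Bcl2 and Bcl2l1 probes on array 1 (circles) and array 2 (squares), with the mean and SD of the spots in black. The spots of an array lie close together, while the arrays stand apart, on opposite sides of 0 for Bcl2l1.

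Mcl1, a guardian known for the fast turnover of its protein, was read by 2 probes of opposite sign. The brightest (NM_008562, chr3:95466855-95466914) had signals of 8379 in the maternal line and 2550 in B16F1-GFP-D on array 1, and of 2466 and 9258 on array 2. Its log2 ratio was -0.01 on array 1 and -0.20 on array 2, a mean of -0.11 ± 0.14. Before scaling, the B16F1-GFP-D signal was the higher in each dye, 1.10 times in Cy5 and 1.03 times in Cy3, against the sign of this mean. The other probe, of the same transcript at chr3:95465543-95465602, had ratios of 0.29 and 0.27. Both probes were far above their backgrounds of 18 to 81 in every channel, so the difference in sign was not limited to dim spots.

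Among the pro-apoptotic members, Bak1, which encodes the effector BAK, had the highest ratio. Its brightest probe (NM_007523, chr17:27156967-27157026) had signals of 2000 in the maternal line and 854 in B16F1-GFP-D on array 1, and of 707 and 3564 on array 2. In each dye the B16F1-GFP-D signal was the higher. The log2 ratio was 0.50 on array 1 and 0.38 on array 2, a mean of 0.44 ± 0.09, or 1.36-fold higher in B16F1-GFP-D. Of all detected genes, 83.8% had a lower mean ratio. The coding probe printed above had the same sign, with ratios of 0.20 and 0.22, and Bak1 was the only detected member with more than 1 detected probe whose detected probes were all above 0 on both arrays.

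Bcl2l11, which encodes the BH3-only protein Bim, was above 0 on both arrays by unequal amounts. Its brightest probe (NM_207680, chr2:127988051-127988110) had signals of 292 in the maternal line and 99.7 in B16F1-GFP-D on array 1, and of 86.3 and 369 on array 2. The log2 ratio was 0.08 and 0.46, a mean of 0.27 ± 0.27, and the B16F1-GFP-D signal was the higher in each dye. The probe across the BH3 codons had ratios of -0.06 and 0.16 and was not detected. The other probe, for the transcript ENSMUST00000129206 at chr2:127954736-127955417, had ratios of 0.19 and 0.08 and was not detected either.

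Bid encodes the BH3-only protein that is cleaved by caspase-8 and links death receptors to mitochondria. Its single probe (NM_007544, chr6:120843464-120843523) had signals of 1228 in the maternal line and 339 in B16F1-GFP-D on array 1, and of 396 and 1587 on array 2. B16F1-GFP-D was the higher line in Cy5 and the lower in Cy3, and the log2 ratio was -0.12 on array 1 and 0.14 on array 2, a mean of 0.01 ± 0.18.

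Bmf, a BH3-only protein known to be held at the cytoskeleton and to act on detachment, was detected through the maternal line only, so its ratio has no firm size. Its brightest probe (NM_138313, chr2:118354519-118354578) had signals of 277 in the maternal line and 54.3 in B16F1-GFP-D on array 1, over local backgrounds of 76 and 21, and of 78.5 and 169 on array 2, over 19 and 81. It was well above background in B16F1-GFP-M on both arrays and in B16F1-GFP-D on array 2 only. In each dye the B16F1-GFP-D signal was the lower. The log2 ratio was -0.74 and -0.43, a mean of -0.59 ± 0.22, on the lower side in both dye orientations. The size of this value depended on the background correction. With the log ratio of the scanner software it was -2.09 on array 1 and -1.09 on array 2, which is past 2-fold, and with an offset of 0 in place of 50 it was -1.46 and -0.82. The other Bmf probes were not detected and had ratios of -0.01 and -0.10 at chr2:118358312-118358371, and of 0.13 and -0.13 at chr2:118356977-118357036.

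**Figure D3:**
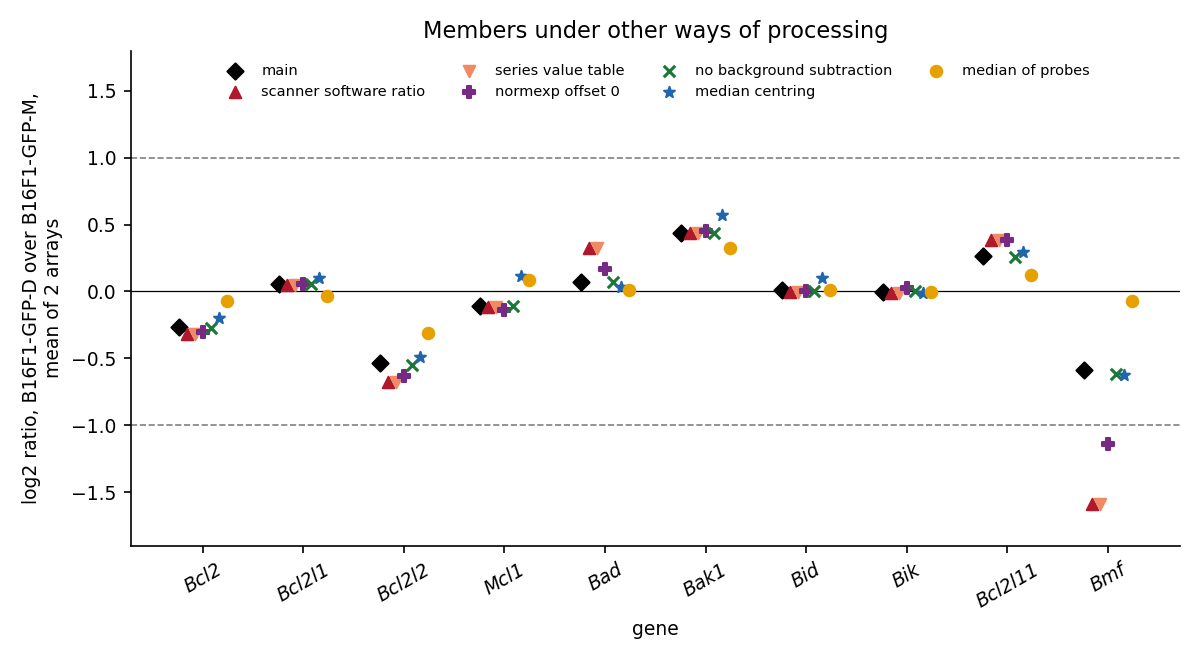
Mean log2 ratio (B16F1-GFP-D over maternal line) for each member, read from its brightest probe unless stated, as reported (black) and under 6 other ways of processing the same arrays, with the dashed lines at 2-fold. Bmf ranged from -1.59 with the scanner software's ratio to -0.07 with the median of its probes, while the other members stayed between -1 and 1.

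Bad and Bik were not detected, so only their dimness can be reported. Bik (NM_007546, chr15:83374048-83374107), a BH3-only gene, was not well above background in either line on either array. Bad, whose protein is inactivated by survival kinases through phosphorylation, had a brightest probe (NM_007522, chr19:7016618-7016677) that passed background in Cy5 on both arrays, the maternal line on array 1 and B16F1-GFP-D on array 2, but never in Cy3. Its ratios were 0.05 and 0.09. A second probe carrying the name Bad (AK029400, chr19:7025594-7025653) passed the detection rule with ratios of -0.07 and -0.01, but it lies on the minus strand, the opposite strand to the first. All 10 probes of the guardians were detected, and 6 of the 12 probes of the pro-apoptotic members, among them this minus-strand probe named Bad. Of the 6 member probes that were not detected, 5 were well above background in Cy5, the brighter dye, on at least 1 array and 0 in Cy3.

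Set against each other, the detected guardians had a median mean log2 ratio of -0.19 and the detected pro-apoptotic members of 0.14, beside -0.01 for all detected genes. The guardians were the lower group by 0.33. On array 1 the medians were -0.28 and -0.02, a difference of -0.25, and on array 2 they were -0.17 and 0.26, a difference of -0.43. The groups overlapped on both arrays, since Bmf was the lowest member on array 1 and Bcl2l1 lay above Bid on array 2. Each median rests on 4 genes read from the same RNA, and no test of the difference is possible. These medians moved with the choice of genes and probes. Without Bmf, which was not well above background in both lines, the pro-apoptotic median was 0.27 and the difference -0.46, and with Bad and Bik added by leaving out the filter they were 0.04 and -0.23. The median of the guardians was -0.05 with median centring and when each gene was read as the median of its probes, which left a difference of -0.25 and -0.11.

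**Figure D4:**
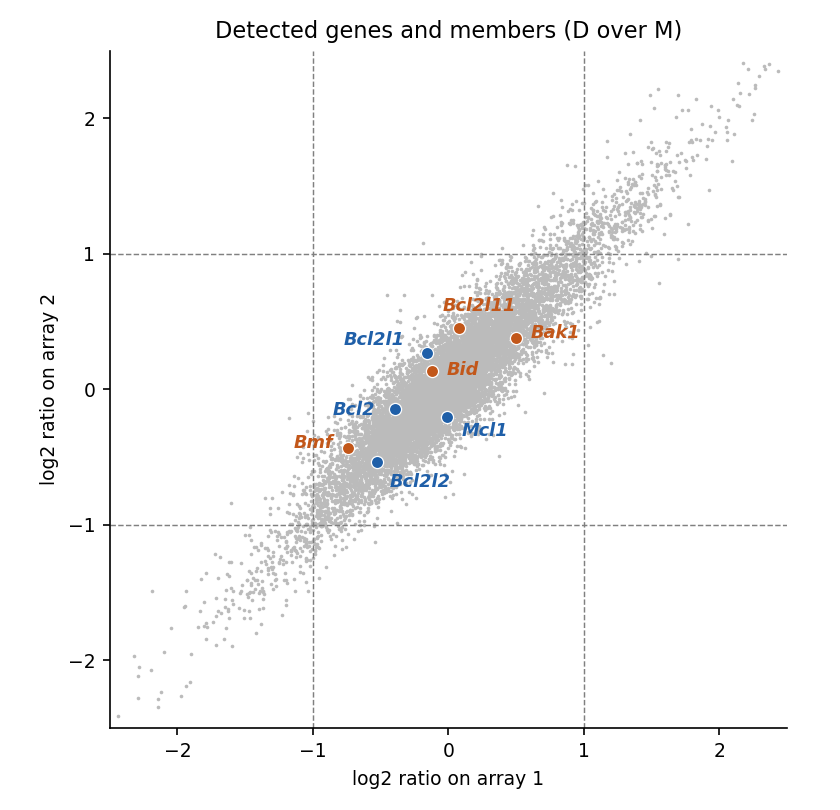
Log2 ratio (B16F1-GFP-D over maternal line) on array 1 (horizontal) and array 2 (vertical) for the detected genes (grey, 12520 within the axes and 20 outside) and for the detected anti-apoptotic (blue) and pro-apoptotic members (orange), with dashed lines at 2-fold. The 8 members lie in the central cloud, inside the 2-fold lines on both arrays.

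Other genes of the pathway did pass 2-fold. From 10 lists of 67 genes in all, 65 were found on the arrays, 51 were detected and 5 were called, 4 higher and 1 lower in B16F1-GFP-D. That is 9.80% of those detected, beside 5.02% of all detected genes, and their median log2 ratio was 0.12. The lists were chosen with earlier results of these data known, and the difference between these shares was not tested. The count also moved with the processing, from 0 with median centring to 8 on array 2 alone. The other guardians of the family, Bcl2a1b, Bcl2a1c and Bcl2l10, were not detected, and Bcl2a1a and Bcl2a1d matched no probe by name. The Bcl2a1 genes are near-identical copies, whose probes cannot be assigned to a single copy with certainty. The other effectors were close to 0, with Bok at 0.17 ± 0.10 and Bax at -0.06 ± 0.27, the latter of opposite sign on the arrays.

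Among the BH3-only genes that were not members, Bnip3, a mitochondrial protein known to be induced by low oxygen and to act in mitophagy, was called higher in B16F1-GFP-D. Its log2 ratio was 1.77 on array 1 and 2.06 on array 2, a mean of 1.92 ± 0.21, or 3.78-fold. Its relative Bnip3l was at 0.54 ± 0.24. Bbc3 (Puma), a target of p53, was the lowest of this list at -0.90 ± 0.02, with -0.89 and -0.92 on the arrays, and was not called. Pmaip1 (Noxa) and Hrk were not detected. Of the more distant relatives, Bcl2l12 was at 0.08 ± 0.02 and Bcl2l13 at 0.02 ± 0.08, and Bcl2l14 and Bcl2l15 were not detected.

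Genes of proteins that bind or turn over family members were all detected, and 0 of 11 were called, beside 5.02% of all detected genes. With 11 genes, a count of 0 does not set them apart from that share. They ran from -0.44 ± 0.02 for Vdac3 to 0.75 ± 0.08 for Vdac1, both channels of the outer membrane. On both arrays 8 were above 0 and 3 below 0, beside 5143 and 5363 of the 12540 detected genes. The other Vdac1 probe was past 2-fold, with 1.15 and 1.16 on the arrays, but is not the brightest of the gene. Downstream of the mitochondria, Endog, a nuclease released from them, was called at 1.30 ± 0.06, with 1.35 and 1.26 on the arrays. Diablo, which relieves the block on caspases, was the lowest of that list at -0.32 ± 0.09. Cycs, the gene of cytochrome c, was at 1.24 ± 0.36 and missed the threshold with 0.98 on array 2. Its other probes passed 2-fold on each array, with 1.13 and 1.03 and with 1.09 and 1.17, and it was called when a gene was read as the median of its probes and when no background was subtracted. It is named because it lay next to the threshold, after its value was seen, and its processed copies in the genome make its probes uncertain. Also near the threshold without being called were Aifm1, with 0.93 and 1.05 on the arrays, and the regulator Myc, with -0.98 and -1.17. Aifm1 and Myc were both called with the scanner software's ratio, with an offset of 0 and on array 2 alone. The other Aifm1 probe had a mean of 0.77, and the other Myc probes had means of -0.69 and -0.25. All 6 caspases were above 0 on both arrays, as were 5143 of the 12540 detected genes. None of the caspases was called, and they ran from 0.12 ± 0.04 for Casp2 to 0.90 ± 0.19 for Casp6.

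Of the inhibitors of apoptosis, Birc5 (survivin), which also works in mitosis, was called at 1.33 ± 0.01, or 2.52-fold higher, with 1.34 and 1.32 on the arrays. Naip2 was the lowest at -0.42 ± 0.04. The death receptor list had no call among its 6 detected genes, too few to set it apart from the 5.02% of all detected genes. It ran from -0.55 ± 0.05 for Tnfrsf1a to 0.18 ± 0.29 for Ripk1. Ripk1 had opposite signs on the arrays, with -0.03 and 0.38, and its other probes had means of -0.15 and -0.04. Among transcription factors known to act on the family, Ddit3 (CHOP), a stress factor that acts on Bcl2 and Bcl2l11, was called lower at -2.29 ± 0.01, or 4.88-fold, with -2.29 and -2.28 on the arrays. E2f1, a driver of S phase genes, was called higher, with 1.17 and 1.83 on the arrays (SD 0.47). Of the FOXO genes listed, Foxo1 was at -0.42 ± 0.06, with -0.37 and -0.46 on the arrays and a mean of -0.26 for its other probe. Foxo3 RNA was too dim to be detected. The paper reports FOXO3A protein in both lines, which the arrays do not measure.

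**Figure D5:**
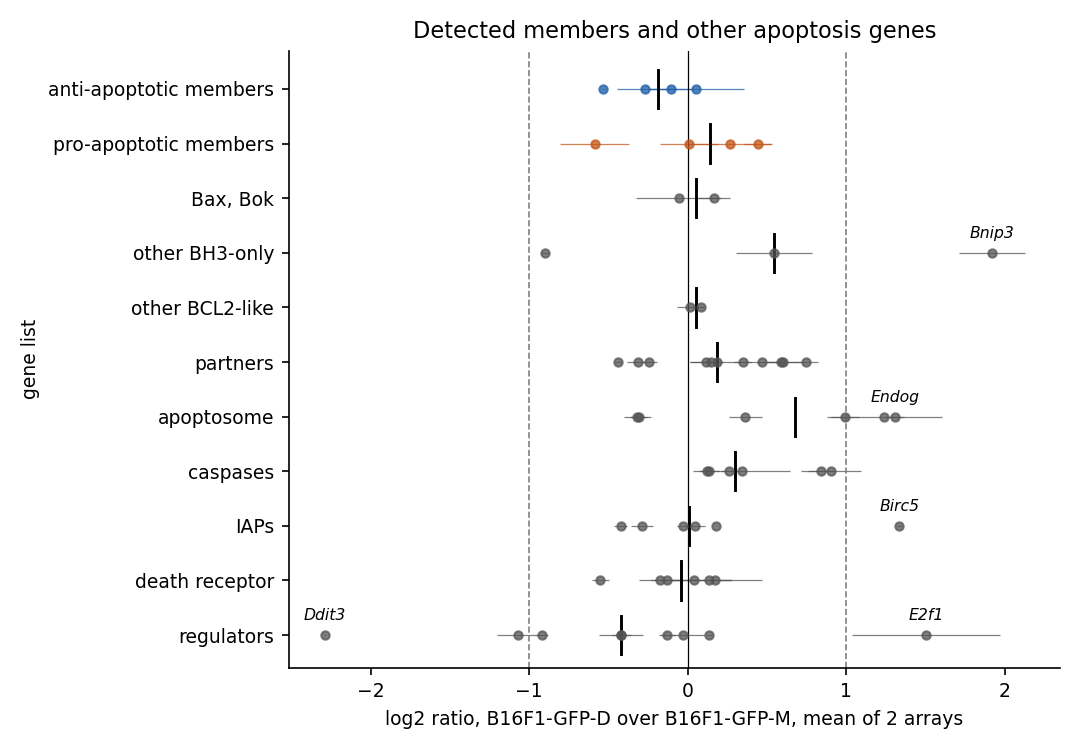
Mean log2 ratio (B16F1-GFP-D over maternal line) for each detected gene of the member groups and of the other apoptosis lists with a detected gene, with the SD of the 2 arrays as a bar and the median of each list as a black line. The 5 called genes are named, and no member lies beyond the dashed 2-fold lines.

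The lines were checked against markers of cell types. All 12 melanocyte markers were detected and 0 were called, which does not set so few genes apart from the 5.02% of all detected genes. They ran from -0.92 ± 0.04 for Mitf to 0.37 ± 0.27 for Gpr143. The leukocyte markers had 1 of 10 detected, Cd3e, which was dim and did not pass in both lines, and Ptprc, which marks all leukocytes, was not. Of the fibroblast markers 3 of 8 were detected, Col1a2 at -0.33 on both arrays and Col1a1 and Pdgfrb through B16F1-GFP-D only, at dim signals that give their ratios no firm size. None of the 5 endothelial and 6 epithelial markers was detected. In bulk RNA of this kind, fewer cells that express a gene and less RNA per cell cannot be told apart. Of all spots, between 44.1% and 60.7% were well above background in a channel, with the higher shares in Cy5 on each array, and no spot was saturated.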

How the data were processed

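The B16F1-GFP-D line was set against its maternal line on 2 arrays with exchanged dyes. The deposited intensity values are the mean signal and median local background of each spot, measured by the authors with Agilent Feature Extraction version 10.7.3.1, and carry no normalization. The deposited log10 ratios of Cy5 over Cy3, also in the series value table, come from the authors' software, which had subtracted background and normalized the dyes, and were used as alternatives only. The software's flags gave outliers and spots well above background.

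In R 4.3.3 with limma 3.58.1, intensities of all spots, controls included, were background-corrected (normexp, offset 50). Loess normalization of each array followed, with controls and outlier spots given no weight in the fit. Only the 43379 non-control spots were used after that. Outlier spots, 143 of array 1 and 176 of array 2, were dropped. Ratios were put on the log2 scale with B16F1-GFP-D as numerator, and spots of a probe were averaged. Names were taken from the RefSeq table of GRCm38.p6 through the accession, which matched 27192 of 28069 probes with one, and otherwise from the array. A gene was read from its brightest probe. Errors are SDs of the 2 arrays, pooled 0.15 over detected genes. Which exon or untranslated region a probe reads was not looked up here. The number of arrays limits the precision. The named genes are all members and, of each other list, each called gene and the highest and lowest detected one. Other genes named, such as Bnip3l, Cycs, Aifm1, Myc, Foxo1, Col1a1 and those given as not detected, were named after their values were seen. The members and lists were chosen with earlier results of these data known. The calling was tested on simulated data. There were 13 alternatives. Python 3.11.15 was used for tables and figures.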

Additional observations from a re-analysis of the deposited data

How the results depend on the processing

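No member was called under 11 of the 13 alternatives. In the series value table and in the scanner software's ratios, which are the same values before rounding, 1 member was called, Bmf. The number of all genes called was 630 as reported, 1356 with the software's ratio, 1352 with the value table, 1077 with an offset of 0, 1980 at 1.5-fold and 123 at 3-fold. Median centring of the log ratios without loess put the median of the detected genes at -0.86 on array 1 and at 1.02 on array 2, so that only 64 genes had 2-fold ratios of equal sign. The number of other apoptosis genes called was 5 as reported, 0 with median centring, 8 on array 2 alone, 13 at 1.5-fold and 2 at 3-fold. The difference of the medians of guardians and pro-apoptotic members stayed below 0 in every alternative that gave it. On array 1 the pro-apoptotic median was -0.02 over the 4 members detected on both arrays, and 0.05 when detection was judged on that array alone, which added Bad. The difference shrank to -0.11 when probes of a gene were combined by their median. Aquantile scaling leaves ratios within an array as they are and changed nothing. Mcl1, Bcl2l1, Bid and Bik changed sign between alternatives, and the other members did not. Of the single values of the 8 detected members, 72 moved by less than the pooled SD between arrays and 15 by more. Bad and Bik are not in that count, and Bad went from 0.07 as reported to 0.32 with the software's ratio. No paired analysis was possible because there is 1 replicate of each line and both arrays lie on the same slide, which also leaves no fit with the slide as a block. Values of dim probes, as for Bmf, Bad, Bik and most Bcl2l11 probes, are limited by signal over background.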
